A study of Mus musculus with 12 samples.

Results

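The interleukin-1 (IL-1) family was examined as 8 listed genes in bulk RNA-seq of mouse tongue. They were the agonists Il1a and Il1b, the antagonist Il1rn, the receptors Il1r1, Il1r2 and Il1rl1, and the cytokines Il18 and Il33. All 8 were found among the 32498 named gene rows, and all 8 were among the 16852 genes that entered the test, those whose mean reached 0.1 FPKM (fragments per kilobase of exon, relative to the library total). Tongue tissue, described in the labels as tumor plus tumor-associated cells, came from C57BL/6 mice that had all drunk water with the carcinogen 4-nitroquinoline 1-oxide (4NQO, 100 µg/mL, 16 weeks) and then plain water. The mice were 5 weeks old at purchase, and their age at sacrifice is not given in the sources used here. From week 4 of exposure, 6 of the sequenced tongues came from mice gavaged 5 times per week with gallic acid (GA, a plant polyphenol) at 100 mg/kg, and 6 from mice gavaged with the vehicle alone, DMSO diluted in methyl cellulose and Tween-20. No tongue without 4NQO was measured, so every level below is that of a carcinogen-exposed tongue. The labels number the samples but name no animals, and p-values therefore measure the spread between these samples.

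IL-1α and IL-1β bind the same signalling receptor, IL-1R1, which recruits IL-1RAP and signals through MyD88 and NF-κB. IL-1Ra, the product of Il1rn, occupies that receptor without signalling, and IL-1R2 is a decoy that binds IL-1 but carries no signalling domain. In stratified epithelium IL-1α, IL-18 and IL-33 are made by keratinocytes and held as alarmins, released on damage, whereas IL-1β is made mainly by activated myeloid cells and needs cleavage by caspase-1. IL-33 acts through ST2, encoded by Il1rl1, on mast cells, regulatory T cells and type 2 innate lymphoid cells.

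The ligand genes of IL-1 lie together on mouse chromosome 2. In GENCODE M21, on the mm10 (GRCm38) assembly to which the authors aligned, Il1a spans chr2:129299610-129309972 and Il1b chr2:129364570-129371139, both on the minus strand and 54.6 kb apart, and Il1rn spans chr2:24336853-24351494 on the plus strand. The receptor genes Il1r2, Il1r1 and Il1rl1 follow each other on the plus strand within 391 kb at chr1:40074079-40465415. Il18 lies at chr9:50554827-50581840 and Il33 at chr19:29925114-29960718. Exons of Il1a share 11.2% of their bases with a transcript on the other strand, Gm14023, and exons of Il1b share 1.31% with the antisense gene Il1bos. Whether reads were counted by strand is not given in the sources used here, so a small part of the Il1a and Il1b values cannot be told apart from those partners.

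The promoters of both agonists and of their antagonist are shown because these genes share a receptor while the level of Il1b varied far more between tongues than that of the other two. Each run below holds the 250 bases before the first transcription start listed in RefSeq (GRCm38.p6), read 5′ to 3′ on the gene's own strand. Capitals mark the letters TATAAA (the TATA box) and TGANTCA (an AP-1 site). The runs lie at chr2:129309973-129310222 (minus strand), chr2:129371140-129371389 (minus strand) and chr2:24336610-24336859 (plus strand) in the order printed.
Il1a: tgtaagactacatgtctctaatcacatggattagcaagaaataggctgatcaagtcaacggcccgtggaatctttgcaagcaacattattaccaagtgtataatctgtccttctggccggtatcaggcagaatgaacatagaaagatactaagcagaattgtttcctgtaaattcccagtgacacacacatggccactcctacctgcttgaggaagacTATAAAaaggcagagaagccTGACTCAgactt
Il1b: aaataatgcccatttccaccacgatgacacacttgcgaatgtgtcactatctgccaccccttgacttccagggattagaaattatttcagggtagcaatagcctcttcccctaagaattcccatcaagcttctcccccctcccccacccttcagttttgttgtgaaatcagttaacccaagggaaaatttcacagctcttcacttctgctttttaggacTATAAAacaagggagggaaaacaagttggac
Il1rn: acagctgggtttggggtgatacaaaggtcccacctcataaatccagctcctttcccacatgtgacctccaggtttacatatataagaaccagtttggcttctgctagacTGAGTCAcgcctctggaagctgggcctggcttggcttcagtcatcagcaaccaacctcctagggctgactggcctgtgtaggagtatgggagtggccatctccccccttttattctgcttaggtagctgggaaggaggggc
Il1a and Il1b each held TATAAA at almost the same distance, with its first base at -32 and -31 from the start, and the first Il1rn promoter held none on either strand. TATAAA, searched on both strands, occurred in 13.6% of the 32851 RefSeq promoters (250 bases before to 50 after a start). The AP-1 letters stood at -12 in Il1a and at -141 in Il1rn, were not found in Il1b, and occurred in 7.81% of all promoters. All 8 members had a RefSeq promoter, 13 in all, of which 6 held TATAAA and 2 held TGANTCA. A loose form of the NF-κB site, GGG and CC with 5 free bases between them, was found in 4 of the 13 and in 50.8% of all promoters, and GAGGAA, the core bound by PU.1, in 3 of the 13 and in 28.3% of all. A match is a description of letters and says nothing of binding in these tongues.

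Library totals, recovered from the FPKM values, were 18040420 to 21770380 reads for vehicle and 21237167 to 25192741 for GA. Keratin 13 and keratin 4, which mark the lining epithelium of the tongue, reached 5629 to 21688 and 972 to 9110 FPKM. The skeletal muscle actin gene Acta1 reached 410 to 4053 FPKM. Tongue was thus matched by its markers, and the tumor part of the label was not tested by them. A few libraries stood apart. Y-linked genes had reads in 4 of 6 vehicle and 1 of 6 GA libraries, so sex was unevenly spread. The lingual lipase gene Lipf, a gland marker, was at 8765 to 25476 FPKM in vehicle 3, vehicle 5 and GA 2 and at most 0.508 in the others. A list of 15 neutrophil genes, scored by the mean log2 level of the 11 tested ones, was above 2 in vehicle 4 (2.57), vehicle 5 (4.24) and GA 2 (2.99), and between -0.529 and 1.19 in the other 9 libraries, the limit of 2 being set after the scores were seen.

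Levels of the 8 genes are given in FPKM after scaling of the libraries by a trimmed mean of log ratios (TMM), a scale per length on which genes can be compared. Il33 had the highest median over the 12 libraries, 32.6, followed by Il1rn at 27.0, Il18 at 17.1, Il1r2 at 10.9, Il1a at 7.02, Il1r1 at 3.16, Il1b at 2.20 and Il1rl1 at 0.330. Not every step in that order was held by the libraries. Il33 was above Il1rn in 8 of 12 libraries and Il1rn above Il18 in 9, and Il1r1 was above Il1b in only 5 of 12 although its median was higher. Il1a was above Il1r1, and Il1b above Il1rl1, in 12 of 12. Within the wider family Il36a and Il36g, keratinocyte cytokines of the same fold, were higher still, with medians of 218 and 95.2. Il36b (27.5) and Il36rn (26.2) lay near Il1rn.

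**Figure D1:**
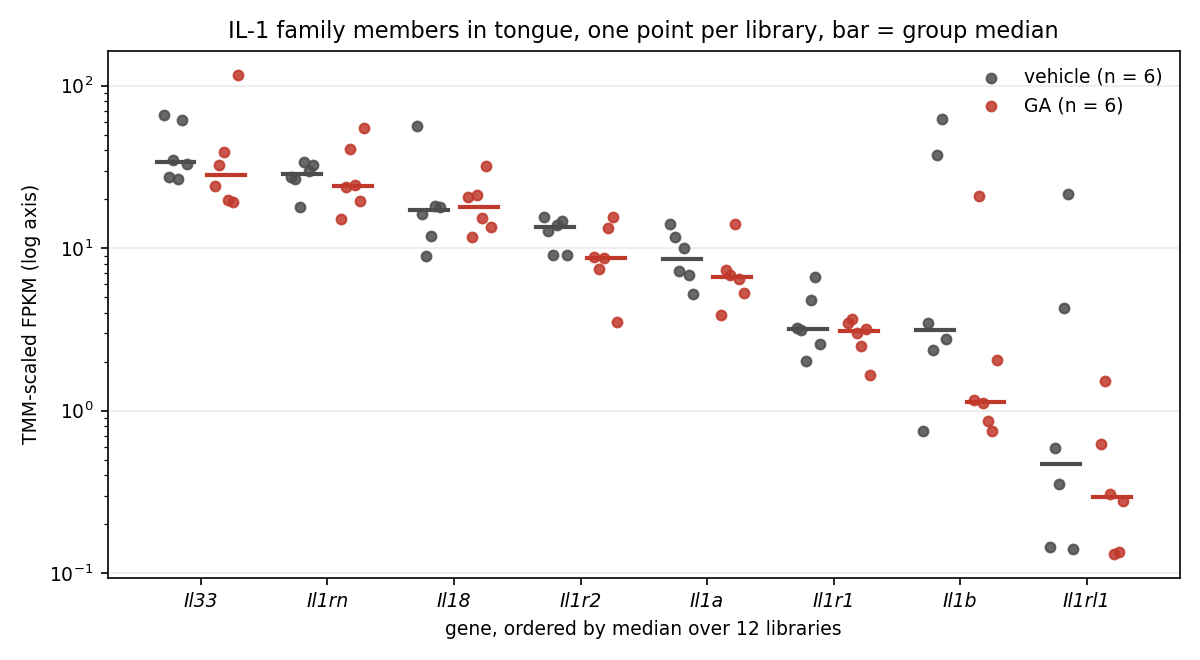
TMM-scaled FPKM (log axis) of the 8 genes, ordered by median over 12 libraries, with vehicle libraries in grey, GA libraries in red and a bar at each group's median. The groups overlap for every gene, and Il1b and Il1rl1 spread over the widest range, 83.9-fold and 163-fold from lowest to highest library.

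None of the 8 genes passed the study's limits between GA and vehicle, an adjusted p below 0.1 with a log2 fold change of 0.58 or more in either direction. The study set these limits on edgeR tests of counts and reported genes that passed them, Areg among them. The test here was another one, on FPKM values, so its calls are not those of the study. In the limma fit over all 16852 genes the adjusted p was 0.999 for each member, and the share of all genes called was 0%. At an unadjusted p below 0.1 with the same fold limit, 0 of 8 members passed against 1.95% of all genes (1.03% lower and 0.92% higher with GA), and at an unadjusted p below 0.05 again 0 of 8 against 2.2%. An exact permutation test over every split of the 12 libraries into 6 and 6 called no gene at an adjusted p below 0.1 and put 2.5% of all genes and 0 of 8 members at an unadjusted p below 0.05, with 0.00216 the smallest p it can give. Limma-voom on reads recovered from the FPKM values also called 0 genes. The mean log2 level was lower with GA for 7 of 8 members, against 48.6% of all genes, and the median log2 fold change of the members was -0.32 against 0.0065 over all genes. No member separated the groups, as 0.0593% of all genes did, a share too small to set 8 genes against. Fold changes are differences of log2(FPKM + 0.1), which makes those of low genes too small.

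**Figure D2:**
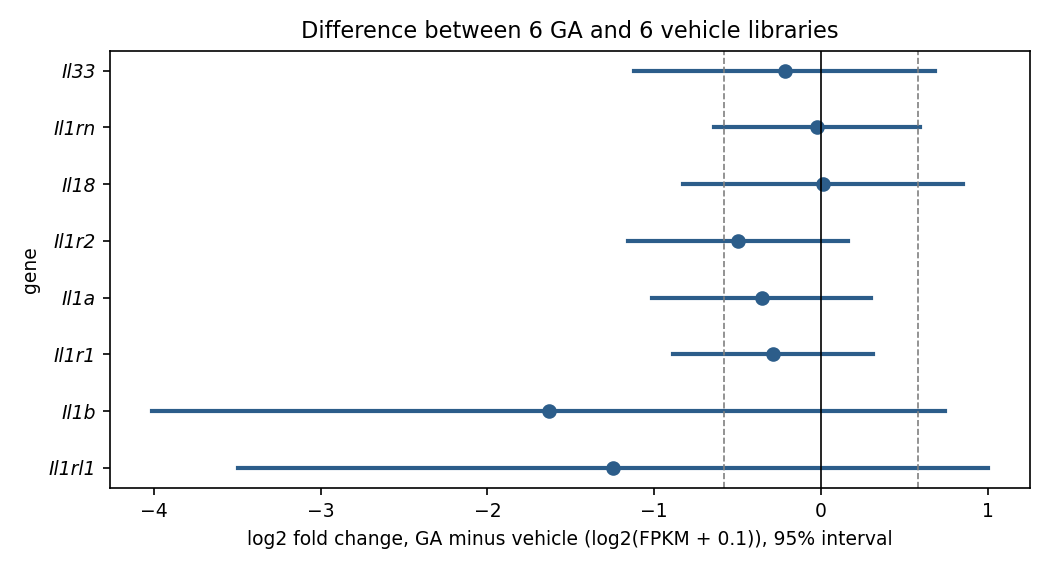
Log2 fold change, GA minus vehicle, of each member with its 95% interval from limma (6 libraries per group), with dashed lines at the fold limit of 0.58 in either direction. Every interval includes 0, and those of Il1b (-4.01 to 0.74) and Il1rl1 (-3.49 to 1.00) are the widest.

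Of the agonists, Il1a was measured at 5.26, 8.59 and 14.1 FPKM (lowest, median and highest) in the vehicle group and at 3.87, 6.67 and 14.2 FPKM in the GA group. Vehicle 1 and GA 4 were the highest of their groups, at nearly the same level, and the groups overlapped over almost their whole range. The log2 fold change was -0.36 (SE 0.30, exact permutation p = 0.314), and it ran from -0.57 without GA 4 to -0.20 without GA 1. Il1b was at 0.751, 3.11 and 62.8 FPKM in the vehicle group and at 0.748, 1.14 and 20.8 FPKM in the GA group. Vehicle 5, vehicle 4 (37.6 FPKM) and GA 2 were far above the rest, the other 9 libraries lay between 0.748 and 3.48 FPKM, and the lowest libraries of the groups had nearly the same level. The log2 fold change of Il1b was -1.63 (SE 1.10, exact permutation p = 0.195), and 5 of 6 GA libraries were under the median of the vehicle group. Without the 3 libraries high in neutrophil genes it was -0.81 (SE 0.43, limma adjusted over all genes, not called), and with a term for the neutrophil score -0.56 (SE 0.35).

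Il1rn, the receptor antagonist, was at 17.8, 28.5 and 34.1 FPKM in the vehicle group and at 15.1, 24.1 and 55.2 FPKM in the GA group. The vehicle libraries all lay inside the range of the GA libraries, of which GA 6 and GA 3 were the highest and GA 1 the lowest. Its log2 fold change of -0.03 (SE 0.28, exact permutation p = 0.933) had an interval from -0.64 to 0.59, and its sign turned in 7 of 28 other settings. Il1r1, the signalling receptor, was at 2.03, 3.19 and 6.67 FPKM with vehicle and 1.66, 3.09 and 3.68 FPKM with GA. Vehicle 5 and vehicle 4 were its highest libraries and the remaining vehicle libraries lay among those of the GA group. The log2 fold change was -0.29 (SE 0.28, exact permutation p = 0.368), and -0.01 (SE 0.23) without the libraries high in neutrophil genes. Il1r2, the decoy receptor, was at 9.05, 13.4 and 15.5 FPKM with vehicle and 3.53, 8.73 and 15.5 FPKM with GA. Of the GA libraries 4 lay below all vehicle libraries, and GA 4 and GA 5 lay among the vehicle libraries. Its log2 fold change of -0.50 (SE 0.30, exact permutation p = 0.147) had the smallest p of the 8 members, and the value ran from -0.66 without GA 5 to -0.24 without GA 6.

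Il18, which is processed by caspase-1 as IL-1β is and acts on lymphocytes, was at 8.91, 17.1 and 56.8 FPKM with vehicle and 11.8, 18.0 and 32.1 FPKM with GA. Vehicle 1 stood well above the others, and the group medians were nearly equal. The log2 fold change was 0.01 (SE 0.39, exact permutation p = 1). Il33 was at 26.8, 33.8 and 66.2 FPKM with vehicle and 19.1, 28.3 and 117 FPKM with GA. GA 6 was the highest of all 12 libraries, and GA 4 and GA 5 were the lowest. Its log2 fold change was -0.22 (SE 0.42, exact permutation p = 0.660). Il1rl1, the receptor gene for IL-33, was at 0.141, 0.470 and 21.5 FPKM with vehicle and 0.131, 0.292 and 1.52 FPKM with GA, so that in most tongues the ligand transcript was far above that of its receptor. Its highest libraries were vehicle 5, vehicle 4 (4.27 FPKM) and GA 2, the same 3 libraries as for Il1b. The log2 fold change of Il1rl1 was -1.25 (SE 1.04, exact permutation p = 0.312) and was -0.03 (SE 0.45) without those libraries. Its lowest libraries rested on 19 reads, against 162 or more reads for Il1a and 1127 or more for Il33.

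The antagonists exceeded their partners in most tongues. Il1rn was above Il1a in 12 of 12 libraries, 1.74-fold to 10.5-fold, and Il1r2 above Il1r1 in 12 of 12, 2.03-fold to 5.37-fold. Il1rn was above Il1b in 10 of 12, up to 36.4-fold in vehicle 1 and GA 3. The 2 exceptions were vehicle 4 and vehicle 5, at 0.908-fold and 0.473-fold, and GA 2 was close to equal at 1.14-fold. The alarmins stood in the same relation to Il1b. Il33 was above Il1b in 10 of 12 libraries, and Il18 and Il1a were each above it in 9 of 12, the exceptions being vehicle 4 and vehicle 5 and, for Il18 and Il1a, also GA 2. As a log2 difference within a library, Il1rn minus Il1b was 2.18 ± 2.31 (SD, n = 6) with vehicle and 3.79 ± 1.83 (SD, n = 6) with GA. The 1.61 between those group means was smaller than the spread within either group, and it was 0.93 without the libraries high in neutrophil genes. Il1r2 minus Il1r1 was 1.79 ± 0.41 with vehicle and 1.58 ± 0.60 with GA.

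**Figure D3:**
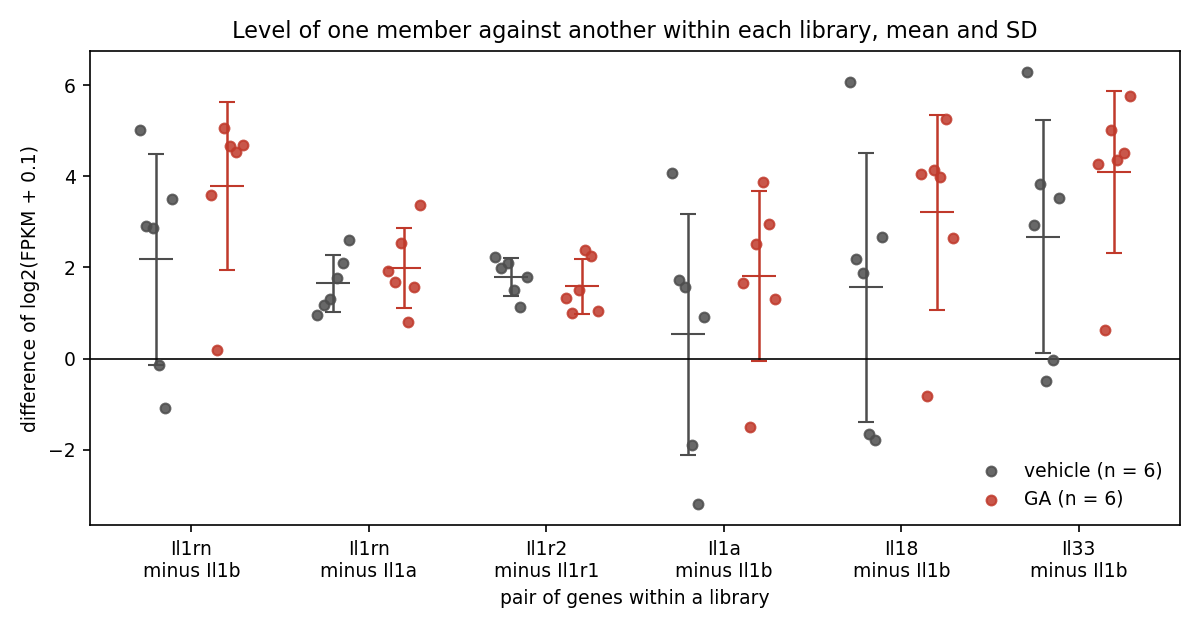
Difference of log2(FPKM + 0.1) between pairs of members within each library, with vehicle in grey, GA in red, and a bar for the mean with its SD (n = 6 per group); a value above 0 means that the first gene was higher. The pairs without Il1b lie above 0 in all 12 libraries, and in the pairs with Il1b the low points are vehicle 4, vehicle 5 and GA 2.

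The 3 libraries with high neutrophil scores were also the highest for 3 members. For Il1b, Il1r1 and Il1rl1, each of these libraries was above each of the other 9, which was true of 1.97% of all genes tested. Il1b was at 20.8 to 62.8 FPKM in them and at 0.748 to 3.48 FPKM in the others, Il1rl1 at 1.52 to 21.5 against 0.131 to 0.625 FPKM, and Il1r1 at 3.68 to 6.67 against 1.66 to 3.47 FPKM. Il1a, Il1rn, Il1r2, Il18 and Il33 overlapped between them. The same split held for 10 of the 18 tested genes of a list of IL-1 response genes, among them Cxcl1 (4.03 to 12.9 against 0.341 to 2.21 FPKM), Cxcl2, Cxcl3 and Cxcl5, which encode neutrophil attractants, and Mmp3, a stromal matrix protease (26.5 to 217 against 1.00 to 8.17 FPKM). Il1b and these genes are not in the neutrophil list. Of the 18 response genes, 16 passed the filter without the 3 libraries. Il6 and Csf3, both among the 10, passed it only with them. Nlrp3, the inflammasome sensor, was at 0.818 to 3.51 against 0.0130 to 0.256 FPKM. In the lists of other cells, 2 of 10 macrophage genes (Cd14 and Itgam) and 1 of 6 mast cell genes (Hdc) split so. Of the fibroblast genes 1 of 6 did (Col1a1), and none of the epithelial, endothelial, muscle and gland genes did. Adgre1, Csf1r, Mrc1 and C1qa of the macrophage list, and Cpa3, Mcpt4, Tpsb2 and Ms4a2 of the mast cell list, overlapped. Whether Cd14, Itgam and Hdc came from those cells was not tested. Of the neutrophil genes, 8 of 11 split in this way, as the score fixes in part. Without the 3 libraries 8 of the 11 passed the filter, and Mmp8, Fpr1 and Cd177, which split, did not. Ly6g had at most 4 reads in any library and the granule genes Mpo, Camp and Ngp at most 8, so those defining markers were at or near 0 throughout. The part of neutrophils in these levels was not tested, and in bulk tissue fewer cells of a type and less RNA per cell cannot be told apart.

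Because these 3 libraries form a cluster of their own, correlations with the neutrophil score are given within the other 9. Of 16 relations (8 members with the neutrophil and the epithelium score) and 28 pairs of members, none passed an adjusted p of 0.05 within the 9. Il1b varied with the neutrophil score there (r = 0.68, exact permutation p = 0.0346, adjusted p = 0.154, and rho = 0.82, exact permutation p = 0.0108, adjusted p = 0.0862). Il18 ran the opposite way (r = -0.88, exact permutation p = 0.00393, adjusted p = 0.0629, and rho = -0.78, exact permutation p = 0.0172, adjusted p = 0.0919). For Il1rl1 r was 0.62 (exact permutation p = 0.0740, adjusted p = 0.237) and rho 0.67 (exact permutation p = 0.0589, adjusted p = 0.236). For Il1r1, although it was highest in the libraries with high scores, r within the 9 was -0.50 (exact permutation p = 0.169, adjusted p = 0.386). Its rho there was -0.35 (exact permutation p = 0.359, adjusted p = 0.717). Without vehicle 1 and vehicle 3, the farthest from the median score, r over the remaining 7 libraries was 0.68 for Il1b (exact permutation p = 0.0754), -0.77 for Il18 (exact permutation p = 0.0484) and 0.73 for Il1rl1 (exact permutation p = 0.0446). The score also holds S100a8 and S100a9, which keratinocytes express. It holds Ltf too, which was at 84.2, 70.8 and 123 FPKM in vehicle 3, vehicle 5 and GA 2, the libraries high in Lipf. In vehicle 4, which is low in Lipf, Ltf was at 0.149 FPKM. Vehicle 3 had the highest score of the 9 libraries, and the part of gland tissue in these relations was not tested.

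**Figure D4:**
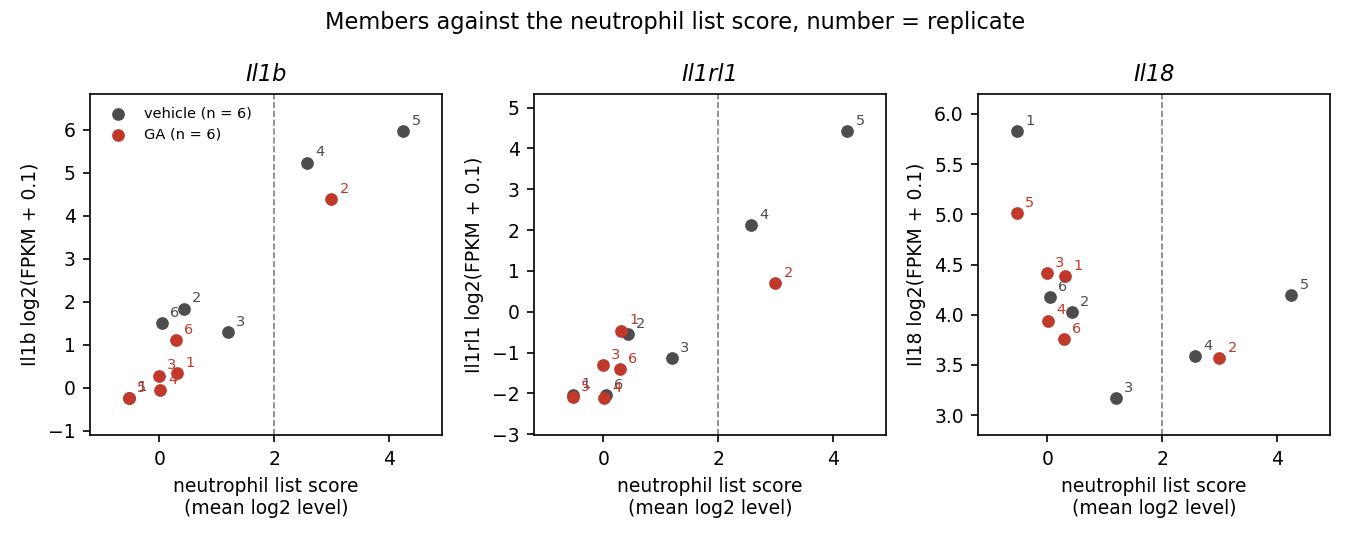
Log2(FPKM + 0.1) of Il1b, Il1rl1 and Il18 in each library against the neutrophil list score (mean log2 level of 11 genes), with replicate numbers beside the points and a dashed line at a score of 2. Vehicle 4, vehicle 5 and GA 2 lie to the right of the line and at the top for Il1b and Il1rl1, and Il18 is highest in vehicle 1 and GA 5 at the lowest scores.

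Il1rn was the member with an adjusted p below 0.05 against the epithelium score, the mean log2 level of 11 keratinocyte genes. Over the 12 libraries r was 0.74 (permutation p = 0.00613, adjusted p = 0.0327) and rho 0.78 (permutation p = 0.00373, adjusted p = 0.0199). Without GA 6 and GA 2, the libraries farthest from the median score, r was 0.74 (permutation p = 0.0154, adjusted p = 0.0823), within the vehicle group 0.84, within the GA group 0.78 and within the 9 libraries 0.80. The sign thus stayed in every subset while the adjusted p did not stay below 0.05. For Il33, r over the 12 libraries was 0.53 (permutation p = 0.0730, adjusted p = 0.234), with 0.26 within the vehicle group, 0.66 within the GA group and 0.69 within the 9 libraries (exact permutation p = 0.0385, adjusted p = 0.154). For Il18, r was 0.68 within the vehicle group and -0.05 within the GA group. For Il1a, also a keratinocyte product, r was 0.17 within the vehicle group, 0.05 within the GA group and 0.41 without GA 6 and GA 2. Whether these relations differ between members was not tested. The part of the amount of epithelium in the Il1rn level was not tested.

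**Figure D5:**
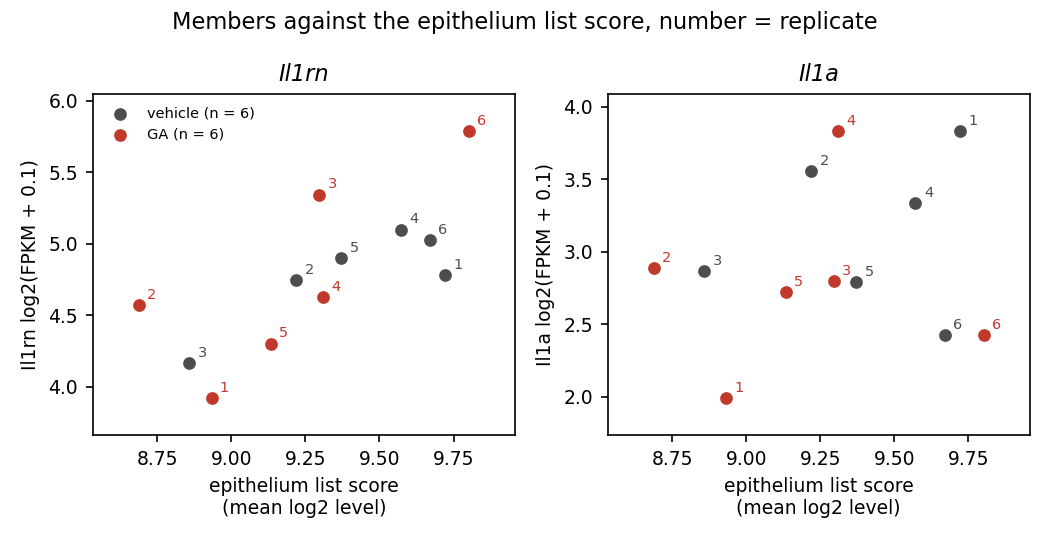
Log2(FPKM + 0.1) of Il1rn and Il1a in each library against the epithelium list score (mean log2 level of 11 genes), with vehicle in grey, GA in red and replicate numbers beside the points. Il1rn is lowest in GA 1 and vehicle 3 at low scores and highest in GA 6 at the highest score. GA 2, at the lowest score, lies above GA 1 and vehicle 3, and vehicle 1, at a high score, is in the middle of the Il1rn range. At the 3 highest scores Il1a is high in vehicle 1 and low in vehicle 6 and GA 6.

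In the rest of the pathway no gene was called either, in any of the 6 lists examined. All 5 other ligands were tested and 4 had a lower mean with GA (median log2 fold change -0.21), with values of -0.31 (SE 0.31) for Il36b, -0.21 (SE 0.21) for Il36g and -0.28 (SE 0.35) for Il36rn, the IL-36 receptor antagonist. Among other receptors and binding proteins 6 of 8 genes passed the filter, 5 of them with a lower mean (median -0.38). Without the 3 libraries high in neutrophil genes the median of the receptors was -0.10 (5 of 6 lower) and that of the ligands -0.37 (5 of 5 lower). Il1rap, the shared co-receptor, had -0.26 (SE 0.17), Il18bp, the soluble IL-18 inhibitor, -0.50 (SE 0.30), Il18r1 -0.51 (SE 0.33), and Sigirr, an inhibitory receptor, 0.40 (SE 0.34). The IL-18 receptor genes were low throughout, at 0.0863 to 0.612 FPKM for Il18r1. Genes of the inflammasome and of processing were near the middle of all genes, with 13 of 18 tested, 8 of them lower (median -0.05). Casp1, which cleaves IL-1β and IL-18, had -0.24 (SE 0.18), its adaptor Pycard -0.06 (SE 0.27), Casp4 -0.33 (SE 0.23), Nlrc4 -0.33 (SE 0.29) and Nlrp3 -0.68 (SE 0.79). The 17 signalling genes also stayed close to 0 (12 lower, median -0.08), with -0.23 (SE 0.15) for the adaptor Myd88, -0.24 (SE 0.16) for Irak3, a brake on that adaptor, and -0.22 (SE 0.13) for Nfkb1.

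Genes known to respond to IL-1 had the lowest median of the pathway lists over all 12 libraries. Of 19 such genes 18 were tested and 17 had a lower mean with GA, with a median of -1.08, where 48.6% of all genes tested had a lower mean. An unadjusted p below 0.05 was reached by 1 of the 18, and by 2.2% of all genes tested. That gene was Nfkbia, the NF-κB inhibitor IκBα and itself a target of the pathway, at 45.7, 56.3 and 95.3 FPKM with vehicle and 33.7, 44.5 and 61.4 FPKM with GA, a log2 fold change of -0.44 (SE 0.20, exact permutation p = 0.0628). The groups overlapped, the GA median lying below every vehicle library. Nfkbiz, an NF-κB cofactor induced by IL-1, had -0.29 (SE 0.17). Mmp13, a collagenase, had -2.30 (SE 1.24), Cxcl5 -2.68 (SE 1.51) and Cxcl1 -1.10 (SE 0.81), and for these 3 the standard error was at least 0.5 of the fold change. Without the 3 libraries high in neutrophil genes, the list's median was -0.35 over 16 tested genes, 15 of them lower, and the median of the 8 members was -0.11 (7 of 8 lower), beside 0.02 over the 16574 genes tested there. The list was then no longer the lowest. The tested genes of a type 2 and interferon list, Ifng not among them, had a median of -0.52 (6 of 8 lower). The other ligands, given above, were also lower. Of the 11 genes listed for type 2 immunity and interferon, 8 passed the filter and 6 had a lower mean (median -0.39). Ifng, the interferon gene of the list, was not among the 8, so these medians do not cover it. Of the 8 genes 1, Areg, reached an unadjusted limma p below 0.05. Areg, an epidermal growth factor receptor ligand, had -1.13 (SE 0.51), Gata3 -0.47 (SE 0.29) and the eosinophil attractant Ccl11 -0.60 (SE 0.41), whereas Il13 and Ifng did not pass the filter and Il9 had no reads.

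Marker lists of the cells that make or receive these cytokines held no called gene. Median log2 fold changes were -0.76 for neutrophil genes (11 of 11 lower, led in level by S100a9 and S100a8), -0.13 for macrophage genes (6 of 10 lower, led by Lyz2 and C1qa), 0.47 for mast cell genes (2 of 6 lower, led by Mcpt4 and Tpsb2) and 0.07 for regulatory T cell and type 2 lymphoid genes (2 of 6 lower, led by Il7r and Il2ra). They were -0.17 for epithelial genes (11 of 11 lower), -0.35 for fibroblast genes (6 of 6 lower, led by Dcn and Lum), 0.13 for endothelial genes (6 of 6 higher, led by Cdh5 and Pecam1), 0.58 for muscle genes (6 of 6 higher, led by Acta1 and Tnnt3) and -1.82 for 5 tested gland genes (5 of 5 lower, led by Lipf and Bpifa2). Without the 3 libraries high in neutrophil genes the medians were -0.21 for neutrophil (4 of 8 tested genes lower), -0.11 for macrophage (9 of 10 lower), 0.61 for mast cell (1 of 6 lower) and 0.05 for regulatory T cell and type 2 lymphoid genes (2 of 6 lower). They were then -0.07 for epithelial (9 of 11 lower), -0.19 for fibroblast (6 of 6 lower), 0.29 for endothelial (0 of 6 lower), 0.17 for muscle (1 of 6 lower) and -2.48 for gland genes (4 of 4 lower). Scores of the neutrophil list ran from -0.529 to 4.24 with vehicle and from -0.529 to 2.99 with GA, and those of the epithelium list from 8.86 to 9.72 and from 8.69 to 9.80. The part of any of these lists in the members' levels was not tested.

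The genes with the pattern most like each member over the 12 libraries, among the 12166 genes whose mean reached 1 FPKM, are given by Pearson's r of log2 levels as a description. Points share a library, so depth and tissue makeup are common to both genes of a pair. For Il1b they were Cxcl3 (0.99), Clec4d, Clec4n, Acod1 and Cxcl2 (0.96), which are expressed by activated myeloid cells, and within the 9 libraries r was 0.95 for Cxcl3 and 0.58 to 0.79 for the other 4. Il1rl1 had Mmp3 (0.96), Fxyd5, Plek, Cxcl3 and Csf3r (0.94), and Il1r1 had Sgms2 (0.97), Efhd2, Mmp2, Ptpn6 and Itpripl2 (0.87). Within the 9 libraries r was 0.67 to 0.79 for the genes of Il1rl1 and 0.70 to 0.92 for those of Il1r1. For Il1rn they were Micall1 (0.95), Bmal2, Mast4, Cstb and Skic8 (0.93), of which Cstb encodes the protease inhibitor cystatin B, at 106 to 366 FPKM. Il1a had a row of Ndor1 (0.91), Wbp1l, Zfp68, Usp36 and Id1 (0.86), and Il1r2 had Arg2 (0.92), Entpd3, Hp1bp3, Pdcd4 and Epb41l4aos (0.86). Il18 had Sh2d4a (0.95), Pik3cb, Chmp1a, Cfap57 and Ripor3 (0.93), and Il33 had Tubb2b (0.92), Rgs20, Cemip, Nabp1 and Erlin2 (0.90). The 8 lists of 5 shared 1 gene, Cxcl3, which stood on those of Il1b and Il1rl1. In the 9 libraries Cxcl3 was at 0 to 0.531 FPKM, Cxcl2 at 0.0420 to 0.773 FPKM and Csf3r at 0.0293 to 0.989 FPKM. These genes thus reached a mean of 1 FPKM only through the libraries high in neutrophil genes. Their r within the 9 libraries rests on low values.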

How the data were processed

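Bulk RNA-seq of 12 tongue samples (6 vehicle, 6 GA, grouped by the treatment label) was used. Alignment was to mm10 by HISAT2 (both also named in the submitters' processing notes), and gene counts of unique reads came from featureCounts. The authors deposited FPKM values, that is, reads divided by library total and gene length. Of 55463 rows, 22965 without a gene name (16.2% to 25.5% of summed FPKM) were left out. FPKM was scaled by TMM (factors 0.906 to 1.08) and, since it is no count, tested as log2(FPKM + 0.1) with limma 3.58.1 (trend) in R 4.3.3 on genes whose mean reached 0.1 FPKM, with Benjamini-Hochberg adjustment. Two-sided permutation tests, correlations and Dixon's ratio were computed in Python 3.11.15 with scipy 1.17.1 (100000 resamples for 12 or 10 libraries, exact for 9 or 7), and the scripts were tested on simulated data. With exon lengths of GENCODE M21 reduced by 17.1 to 24.2 bases per library, 97.7% to 98.3% of low values were whole reads within 0.02. This gave library totals (medians 21129647 with vehicle and 23684600 with GA) and the reads behind a value. A number of reads tells of the counting error of that value and not of the spread between tongues.

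The members and lists were chosen with earlier results of these data known. Named were all members, 8 fixed pathway genes, the 3 genes of smallest p of each pathway list, the 2 highest of each marker list and the 5 genes most like each member. Alternatives covered pseudocount, filter, scaling, weights, covariates, the replicate number as a block, recovered reads in limma-voom, and libraries left out.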

Additional observations from a re-analysis of the deposited data

Results flagged for a closer look

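In 28 groups of 6 values (8 members and 6 differences, per treatment group), 8 held a library beyond the 95% critical value of Dixon's test. Its ratio is the gap of a library to its nearest neighbour relative to the group's range. Chance gives about 1 in 20 for independent groups of normally distributed values. Members entered as FPKM and not as log2 levels, which sets high values farther apart, and the differences reuse their values. The 8 are therefore a description and are not set against that share. Of these 8, 5 belonged to libraries with a high neutrophil score.

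GA 2 was such a library for Il1b (ratio 0.935; 20.8 FPKM, the other 5 at 0.748 to 2.06) and Il1rl1 (ratio 0.643), and, at the low end, for Il1rn minus Il1b (ratio 0.697) and Il33 minus Il1b (ratio 0.709). Vehicle 5 was another for Il1rl1 (ratio 0.806; 21.5 FPKM, the other 5 at 0.141 to 4.27). The other 3 fell in libraries with low neutrophil scores. GA 4 was high in Il1a (ratio 0.667; 14.2 FPKM, the other 5 at 3.87 to 7.30), vehicle 1 in Il18 (ratio 0.805; 56.8 FPKM, the other 5 at 8.91 to 18.2) and GA 6 in Il33 (ratio 0.795; 117 FPKM, the other 5 at 19.1 to 39.1).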

How the results depend on the processing

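No member was called in any of the 28 other settings. The unadjusted limits, which no member passed in the main setting, were passed by 1 member in some of them. Il1b passed with array weights, with a sex term, without the Lipf-high libraries and without those high in neutrophil genes. It also passed without vehicle replicate 1 and without GA replicate 2. Il1r2 passed without vehicle replicate 3 or 6 and without GA replicate 4 or 5, and Il33 without GA replicate 6. The count of all genes called was 0 except for 1 gene, Gm25290, without vehicle replicate 4, without the libraries high in neutrophil genes, and without those or the Lipf-high libraries (named after its values were seen; log2 fold change -3.68 to -3.87); over settings that leave out 1 replicate the count ran from 0 to 1. Genes at the unadjusted limits numbered 329, and 74 with a pseudocount of 1, 102 with a mean of at least 1 FPKM, 741 with array weights, 647 with a sex term, 556 without the Lipf-high libraries and 307 to 864 with 1 replicate left out (802 without vehicle replicate 3, 544 without GA replicate 2 and 864 without GA replicate 6). Il1a, Il1b, Il1r1, Il1r2 and Il33 kept their sign in all 28. The log2 fold change of Il18 (0.01) turned to -0.19 with a neutrophil term, -0.11 without the Lipf-high libraries, -0.00029 without those high in neutrophil genes and -0.38 without both, and ran from -0.19 to 0.35 with 1 replicate left out. That of Il1rn turned to 0.12 without the libraries high in neutrophil genes and ran from -0.23 to 0.14 with 1 replicate left out, and that of Il1rl1 turned to 0.067 without both sets. With 1 replicate left out Il1b ran from -2.32 (without GA replicate 2) to -0.96 (without vehicle replicate 5), Il1rl1 from -1.68 (without vehicle replicate 6) to -0.39 (without vehicle replicate 5), Il33 from -0.58 (without GA replicate 6) to -0.06 (without GA replicate 5), Il1r2 from -0.66 (without GA replicate 5) to -0.24 (without GA replicate 6), Il1a from -0.57 (without GA replicate 4) to -0.20 (without GA replicate 1) and Il1r1 from -0.44 (without vehicle replicate 3) to -0.10 (without vehicle replicate 5). The unadjusted limma p was below 0.05 at the lowest value of Il1b, Il1r2 and Il1a. The cause of these changes was not tested. Correlations between samples of the same number were -0.37 to 0.08, which shows no likeness by number but cannot settle whether the samples were paired. With the replicate number as a block, 299 genes passed the unadjusted limits and no call changed. The unadjusted limma p of Il1r2 was 0.0437 in that setting. Relations passing an adjusted p of 0.05 numbered 3 of 16 over all libraries, 2 without the 2 farthest libraries and 0 within the 9. With S100a8 and S100a9 taken out of the neutrophil list these counts were 3, 0 and 0. Pairs of members numbered 2 of 28, 0 without the 2 farthest libraries and 0 within the 9. Settings with the libraries high in neutrophil genes left out were chosen after seeing the data. With 6 libraries per group, the 95% interval of Il1b ran from -4.01 to 0.74, and that of Il1rn still includes the fold limit.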
